A study of Mus musculus with 4 samples.

Results

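Type I interferon-stimulated genes are the genes that cells switch on when interferon alpha or beta binds its receptor. A list of 43 of them was taken by gene symbol from the 33696 genes of the count tables, and each of the 43 had at least 1 unique molecular identifier (UMI, a tag that marks 1 captured RNA molecule) in kept cells of every library. Their levels were read in macrophages, monocytes, dendritic cells, NK cells, T cells and B cells of mouse liver. The liver cells came from male C57BL/6J mice that started the diet at 7 weeks of age, were sampled by fine-needle aspiration (FNA), and were profiled with the 10x Genomics 3' v3.1 kit after enzymatic digestion, lysis of red cells and removal of dead cells. All mice ate the FPC diet, which combines fructose, palmitate, trans-fat and cholesterol and induces steatohepatitis.

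P-LC24 and P-HC24 were sampled at week 24, after 0.05% and 1.25% dietary cholesterol, respectively. The same 3 mice of each arm were sampled again at week 32, after 8 more weeks in which both arms ate 0.05% cholesterol. I-LC32 had thus stayed on low cholesterol throughout, whereas I-HC32 had been moved from 1.25% to 0.05%. Each condition was 1 library made from 12 pooled aspirates of 3 mice, so no test between conditions was possible and no p-value is given. The design gave 2 comparisons. Progression (Prog) set P-HC24 against P-LC24 and asked about cholesterol at week 24. Intervention (Int) set I-HC32 against I-LC32, which both ate 0.05% cholesterol when sampled. It reads the earlier high cholesterol and its later reduction together. Unless named otherwise, 4 values in a row are given in the order P-LC24, P-HC24, I-LC32, I-HC32. Diet, the individual mice and the handling of a library cannot be told apart here. Intervals are exact 95% intervals and cover counting error only.

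The interferon receptor activates the kinases JAK1 and TYK2, which phosphorylate transcription factors such as STAT2. With IRF9 these form a complex that enters the nucleus and binds the interferon-stimulated response element in promoters of the responding genes. Many of the products block viral replication at separate steps, and others, such as IRF7 and the RNA sensors, feed back to amplify interferon production. In the liver, macrophages and monocytes take up debris and nucleic acids and carry these sensors at high levels.

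The response element was searched for as GAAANNGAAA on both strands of the promoter windows of the RefSeq table (build GRCm38.p6, from 250 bases before to 50 bases after a gene start). Of the 43 members, 35 had a window, and 21 of these (60.0%) held the motif, against 3.99% of the 27025 genes in the table. The gamma-activated site, TTCNNNGAA, which reads the same on both strands and is known from promoters that interferon gamma induces, was in 7 of the 35 (20%) and in 9.55% of all genes. A match is a description of the letters in the window and no evidence of binding. The window of Isg15, which encodes a ubiquitin-like protein, is shown whole because 3 overlapping copies of the motif stand in it, in capitals (chr4:156200769-156201068, minus strand, written along the gene, GRCm38.p6).

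Isg15: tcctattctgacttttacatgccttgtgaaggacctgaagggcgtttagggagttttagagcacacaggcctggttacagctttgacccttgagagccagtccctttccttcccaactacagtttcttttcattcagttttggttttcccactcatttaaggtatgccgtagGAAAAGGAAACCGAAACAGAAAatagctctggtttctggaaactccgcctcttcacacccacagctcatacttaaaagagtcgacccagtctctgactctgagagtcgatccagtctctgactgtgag

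Among the members compared in monocytes below, Ifi206 and Oas3 had the lowest Int ratios and Gbp2 the highest. Shorter stretches around the motif are shown for these and for the pair Ifit3 and Ifit3b, whose reads are hard to separate. They come from the windows chr1:173491269-173491568 (Ifi206, minus strand), chr5:120777610-120777909 (Oas3, minus strand), chr3:142620413-142620712 (Gbp2, plus strand), chr19:34583279-34583578 (Ifit3, plus strand) and chr19:34607707-34608006 (Ifit3b, plus strand), all on GRCm38.p6. Capitals again mark the motif, whose first base is at -40 from the gene start in Ifi206, -75 in Oas3 and -59 in Gbp2. The printed stretches of Ifit3 and Ifit3b are identical, and the capital at their end is the first base of a second motif.

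Ifi206: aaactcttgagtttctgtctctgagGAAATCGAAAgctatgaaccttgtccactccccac
Oas3: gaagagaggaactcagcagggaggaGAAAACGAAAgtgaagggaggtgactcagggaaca
Gbp2: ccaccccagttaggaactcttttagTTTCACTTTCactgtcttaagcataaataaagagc
Ifit3: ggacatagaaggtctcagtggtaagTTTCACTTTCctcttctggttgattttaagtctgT
Ifit3b: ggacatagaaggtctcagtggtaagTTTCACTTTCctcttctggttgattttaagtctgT

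On GRCm39, the build of the count tables, GENCODE places Isg15 at chr4:156283883-156285303, Ifi206 at chr1:173296051-173318873, Oas3 at chr5:120891163-120915729, Gbp2 at chr3:142326349-142343779 and Ifit3 at chr19:34560899-34566443. Several members lie in clusters of near copies: Ifi206, Ifi213 and Ifi203 on chromosome 1, the Oas genes on chromosome 5 and the 4 Ifit genes on chromosome 19. Reads that match more than 1 gene are not counted by the counting program, so levels within these clusters, and those of Gbp2 and Gbp3, are uncertain.

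After filtering, 4930, 6532, 6978 and 6919 cells were kept, with a median of 6291 to 8534 UMIs. Classes were gated on raw UMIs of a few marker genes per cell, and 23860 of 25359 kept cells fell into the 6 classes. Of the markers that the gates did not use, Prf1 was seen in 81.2% to 89.3% of NK cells and Pax5 in 77.2% to 89.1% of B cells. Adgre1 was in 91.5% to 97.4% of macrophages and also in 65.2% to 71.3% of monocytes, and Lck was in 75% to 81.3% of T cells and in 64.3% to 78.6% of NK cells. Clec4f, which marks resident Kupffer cells, was in at most 3.33% of macrophages of any library, whereas Gata6, a factor of peritoneal cavity macrophages, was in 51.7% to 78.6%. The myeloid gene Lyz2 had a UMI in 7.73% and 10.2% of B cells of P-LC24 and I-LC32 and in 48.4% and 71.3% of those of P-HC24 and I-HC32, whereas the red cell gene Hbb-bs had one in 91.1% and 91.5% of the former and in 66.2% and 45.0% of the latter. Among kept cells, 85 barcodes occurred in more than 1 library.

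Monocytes carried the highest levels of the list. They were the highest of the 6 classes for 26, 25 and 30 of the 43 members in P-LC24, P-HC24 and I-LC32, but for 12 members in I-HC32. The leading class was the same in all 4 libraries for 12 members. Monocytes led in 9 of these, which were Irf7, Zbp1, Eif2ak2, Oas3, Oasl2, Isg15, Ifitm3, Slfn5 and Ifi27l2a. Dendritic cells led for Bst2, a tethering factor that holds budding virus on the cell surface, and T cells for Ifi206 and the immunity-related GTPase Igtp.

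Levels are given as CPM, the UMIs of a gene scaled to all UMIs of its class in a library. Ifitm3, which encodes a membrane protein that blocks virus entry, stood at 3224, 3795, 4161 and 3101 CPM in monocytes. Ifi27l2a, which encodes a small interferon-inducible membrane protein, stood at 1517, 2116, 1904 and 1063 CPM. These 2 genes made up most of the summed level of the list, which was 7690, 8633, 9584 and 5827 CPM. To keep them from deciding a sum, 21 core members (Irf7, Ifih1, Dhx58, Zbp1, Isg15, Usp18, Herc6, Rsad2, Cmpk2, Mx1, Rtp4, Ifi44 and the Oas and Ifit genes) were also summed without them. The core sum in monocytes was 807, 725, 990 and 378 CPM, so that I-HC32 had the lowest level and I-LC32 the highest.

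Genes were compared within a class where both libraries together held at least 100 UMIs and averaged at least 20 CPM, and a 1.5-fold difference was counted. That filter let 31 of the 43 members through in at least 1 class. The 12 that passed in none were Dhx58, Oas2, Oasl1, Ifit1, Ifit2, Ifit3, Ifit3b, Usp18, Rsad2, Cmpk2, Mx1 and Ifi44, with 170 to 1524 UMIs over the 6 classes and all 4 libraries. Their values are given below from the unfiltered counts.

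Monocytes of I-HC32 held lower levels of most members than those of I-LC32. In the Int comparison 28 members were compared, and 22 were at least 1.5-fold lower in I-HC32, against 7.9% of the 4645 genes compared in monocytes. None was 1.5-fold higher, against 7.13% of all genes. Some of the lower members, among them Ifi206, Oas3, Oas1a and Stat2, passed the filter mostly through I-LC32, the library where they were high. The median log2 ratio of the members was -1.04, that of all genes compared -0.04. The comparison rested on 89 monocytes in I-HC32 and 179 in I-LC32, with a median of 11489 and 11496 UMIs per cell. Their makeup differed too. Ly6c2, a marker of classical monocytes, was in 33.7% of the cells of I-HC32 and in 74.9% of those of I-LC32, and Cd74, which chaperones MHC class II, was at 9049 and 4167 CPM. Their part in the ratios was not tested.

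**Figure D1:**
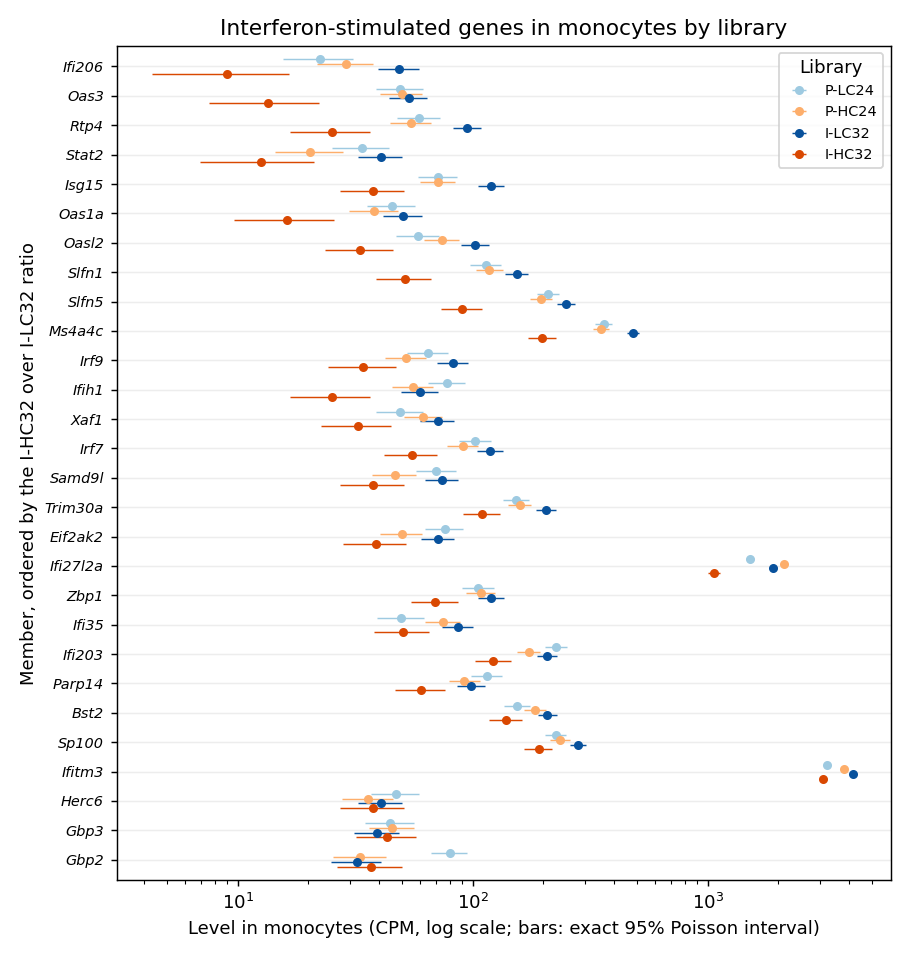
Levels of the 28 members compared in monocytes (vertical axis) in CPM on a log axis, by library, with exact 95% Poisson intervals. The I-HC32 points lie leftmost for 24 of the 28 members, and the I-LC32 points lie rightmost for 20.

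Across the 4 libraries, I-HC32 was the lowest for 24 of the 28 members and the highest for none, whereas I-LC32 was the highest for 20. The signalling members showed this order. Irf7, the factor that amplifies interferon alpha production, was at 103, 90.7, 119 and 55.0 CPM, a log2 ratio of -1.12 (-1.54 to -0.71) for Int. Stat2, a part of the response complex, was at 33.8, 20.4, 40.7 and 12.6 CPM, a log2 ratio of -1.69 (-2.62 to -0.86). Irf9, its DNA-binding partner, was at 64.5, 52.0, 82.3 and 34.2 CPM. For all 3 genes, the I-HC32 level was below each of the other libraries.

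Among the sensors, Ifih1 (MDA5, a receptor of long double-stranded RNA) was at 77.9, 55.8, 59.6 and 25.2 CPM, with a log2 ratio of -1.24 (-1.89 to -0.64) for Int. Zbp1, which recognises Z-form nucleic acids and can start cell death, was at 106, 108, 120 and 69.4 CPM. Eif2ak2 (PKR, the kinase that halts translation on viral RNA) was at 76.0, 49.9, 71.4 and 38.8 CPM. Ratios for Int were -0.79 for Zbp1 and -0.88 for Eif2ak2.

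The 2-5-oligoadenylate synthetases make the messenger that activates RNase L. Oas3 was level at 49.1, 49.9 and 53.4 CPM in P-LC24, P-HC24 and I-LC32 and stood at 13.5 CPM in I-HC32, a log2 ratio of -1.98 (-2.87 to -1.20). Oas1a went from 50.6 to 16.2 CPM between I-LC32 and I-HC32, and Oasl2 from 103 to 33.3 CPM. Summed over the 5 genes of the family the levels were 181, 188, 238 and 82.9 CPM.

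The IFIT proteins bind foreign RNA lacking the host's cap marks. Each of the 4 genes had 1 UMI in the monocytes of I-HC32, against 19 (Ifit1), 33 (Ifit2), 55 (Ifit3) and 14 (Ifit3b) in I-LC32. Their sum was 51.1, 24.7, 57.2 and 3.60 CPM, a log2 ratio of -3.99 (-5.89 to -2.59) for Int. Rsad2 (viperin), which makes a chain-terminating nucleotide, and Cmpk2, its genomic neighbour, were likewise low, with 4 and 1 UMIs in I-HC32 against 62 and 27 in I-LC32. The counts in I-HC32 are too few to rank these genes among themselves. Mx1, whose C57BL/6 allele makes no working protein, had 28, 53, 83 and 16 UMIs, Dhx58, a regulator of RNA sensing, 31, 48, 61 and 16, and Oas2 21, 29, 46 and 18. These 3 genes and Usp18, which removes ISG15 and dampens the receptor (24, 23, 59 and 7 UMIs), were all highest in I-LC32, and Oas2 was lowest in P-LC24 by CPM. Oasl1 had 22, 19, 20 and 4 UMIs and Ifi44 had 6, 3, 5 and 1.

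Isg15 was at 71.5, 71.3, 120 and 37.9 CPM, a log2 ratio of -1.67 (-2.17 to -1.19). Herc6, the ligase that attaches ISG15 to proteins in mice, was at 47.2, 35.9, 40.7 and 37.9 CPM, and its ratio of -0.10 (-0.67 to 0.45) was not distinguishable from 0. The 2 genes of 1 modification system therefore had unlike ratios in the same cells.

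Of the other antiviral effectors that passed the filter, Rtp4, a chaperone of membrane receptors, had the lowest ratio. Its levels were 59.4, 54.7, 95.04 and 25.2 CPM, a log2 ratio of -1.91 (-2.54 to -1.34). The Schlafen genes Slfn1 and Slfn5, which restrain cell growth and viral transcription, went from 154 to 51.4 CPM and from 250 to 90.1 CPM between I-LC32 and I-HC32. Ifitm3, the most abundant member, differed less, at -0.42 (-0.48 to -0.37). Among the IFI200 genes, which sense DNA, Ifi206 was at 22.3, 29.0, 48.7 and 9.01 CPM, and its log2 ratio of -2.43 (-3.54 to -1.50) was the lowest of the 28. Ifi206 passed the filter mostly through I-LC32, and its few UMIs in I-HC32 leave that rank uncertain. Ms4a4c, a membrane gene typical of monocytes, was at 363, 352, 482 and 197 CPM. Other members had Int ratios of -1.13 for Xaf1, -0.90 for Trim30a, -0.78 for Ifi35, -0.58 for Bst2 and -0.56 for Sp100.

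The guanosine triphosphatases were unlike each other. Gbp2, a GTPase that attacks vacuoles of intracellular pathogens, was at 79.8, 33.3, 32.2 and 37.0 CPM, so that P-LC24 alone was high. Its log2 ratios were -1.26 (-1.73 to -0.81) for Prog and 0.20 (-0.40 to 0.78) for Int. Gbp3 was between 39.2 and 45.6 CPM in all 4 libraries. Irgm1 and Igtp, which act on the same kind of vacuole, did not pass the filter for Int and were lowest in I-HC32. Irgm1 was at 35.7, 34.9, 35.9 and 13.5 CPM, from 56, 65, 76 and 15 UMIs, and Igtp at 20.4, 10.2, 17.5 and 7.21 CPM.

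Both kinds of monocyte showed lower levels in I-HC32. Classical monocytes (UMIs of Ly6c2, Ccr2, F13a1 or Chil3) numbered 113 and 42 in the Int libraries. In them, 17 of 20 members compared were at least 1.5-fold lower, against 14.0% of all genes. Patrolling monocytes (UMIs of Ace or Treml4) numbered 65 and 44, and 8 of 11 were lower, against 5.76%. Median log2 ratios were -1.05 and -0.85. The core sum was 1222, 872, 977 and 370 CPM in classical and 526, 556, 1032 and 401 CPM in patrolling monocytes. In classical monocytes P-LC24 was the highest library and I-HC32 the lowest, whereas in patrolling monocytes I-LC32 was above the other 3. Isg15 in patrolling monocytes, at 26.9, 39.0, 133 and 22.8 CPM, shows this shape. The classical core sum of P-LC24 rested on 48 cells.

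In the Prog comparison the members that passed the filter in the whole monocyte class were nearly level. Of 28 compared, 3 were at least 1.5-fold lower (10.8% of all genes) and none higher (5.2%), with a median of -0.04 against -0.13 for all genes. The 3 were Gbp2, Eif2ak2 at -0.61 (-1.01 to -0.20) and Samd9l, a translation inhibitor, at -0.59 (-1.01 to -0.17). The highest ratios were those of Ifi35 at 0.58 (0.17 to 1.00) and Ifi27l2a at 0.48 (0.41 to 0.55), both under the 1.5-fold mark. In classical monocytes the Prog median was -0.27 against -0.06 for all genes, and the core sum was at -0.49 (-0.63 to -0.35). In patrolling monocytes the median was 0.12 against -0.09, and the core sum was at 0.08 (-0.11 to 0.27). The IFIT sum of all monocytes, from genes that did not pass the filter, was at -1.05 (-1.61 to -0.51).

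**Figure D2:**
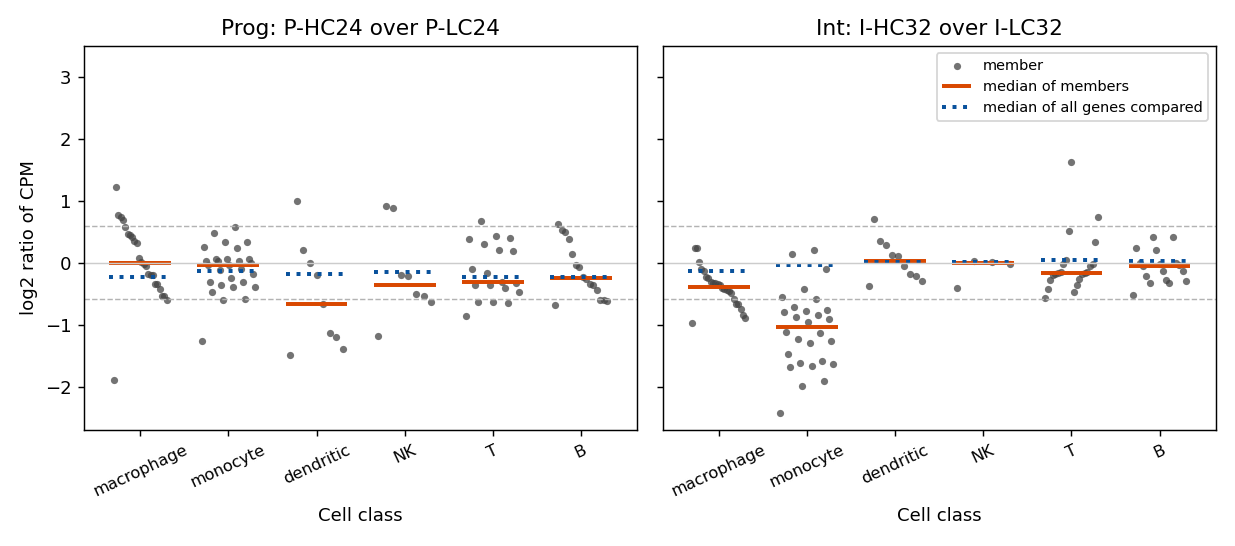
log2 ratios of the members compared in each cell class for Prog (left) and Int (right). Grey points are members, solid orange bars their median, dotted blue bars the median of all genes compared, and dashed lines mark 1.5-fold. The monocyte median for Int lies at -1.04, and every other Int median lies between -0.39 and 0.03. Members below the filter are not shown.

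Macrophages of the whole class showed a mixed picture in Prog, and subsets that differed. In the class, 4 of 24 members were higher by at least 1.5-fold in P-HC24 (4.41% of all genes) and 2 lower (22.6%), with a median of 0.00 against -0.23 for all genes. Gbp2 was highest, from 16.9 CPM in P-LC24 to 39.6 CPM in P-HC24, a log2 ratio of 1.23 (0.62 to 1.90). Rtp4 followed at 0.78 (0.39 to 1.19) and Gbp3 at 0.73 (0.33 to 1.15). Ms4a4c was lowest, from 38.9 to 10.5 CPM, a log2 ratio of -1.90 (-2.39 to -1.39), followed by Trim30a at -0.61 (-0.84 to -0.36) and Oas1a at -0.54.

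Macrophages with a Gata6 UMI numbered 31, 300, 48 and 491. Of 22 members compared in them, 10 were higher in P-HC24 by at least 1.5-fold, against 5.38% of all genes, with a median of 0.55 against -0.15. Oasl2 was at 7.13 CPM in P-LC24 and at 33.6, 32.8 and 26.4 CPM in the other 3, a Prog ratio of 2.24 (1.17 to 3.57). It had 7 UMIs in the 31 cells of P-LC24 and 235 in P-HC24, through which it passed the filter. Irf7 was at 13.2 CPM in P-LC24 and at 50.0, 46.0 and 38.5 CPM in the others. Rtp4 was at 17.3 CPM against 63.4, 88.1 and 57.0 CPM. In each of these genes P-LC24 was the low library, and the other low-cholesterol library, I-LC32, was not. The core sum was 172, 363, 418 and 305 CPM.

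Macrophages without a Gata6 UMI numbered 29, 147, 34 and 134, and in their core sum P-LC24 was the highest library instead of the lowest. In them, 13 of 21 members were at least 1.5-fold lower in P-HC24 than in P-LC24, where 35.1% of all genes were. Their core sum was 955, 462, 669 and 432 CPM. Oasl2 was at 103, 40.7, 80.8 and 34.6 CPM, and Trim30a, a regulator of innate signalling, at 269, 91.2, 149 and 89.2 CPM. In P-LC24 these cells also carried genes of other myeloid cells: Clec9a in 20.7% of them (1.36% in P-HC24), Treml4 in 48.3% (2.72%) and Irf8 in 69.0% (27.2%). A Gata6 UMI is seen more readily in deep cells, and the median depth of the P-LC24 cells was 29497 UMIs with and 11115 without it. The part of this mixture and depth in the ratios was not tested.

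**Figure D3:**
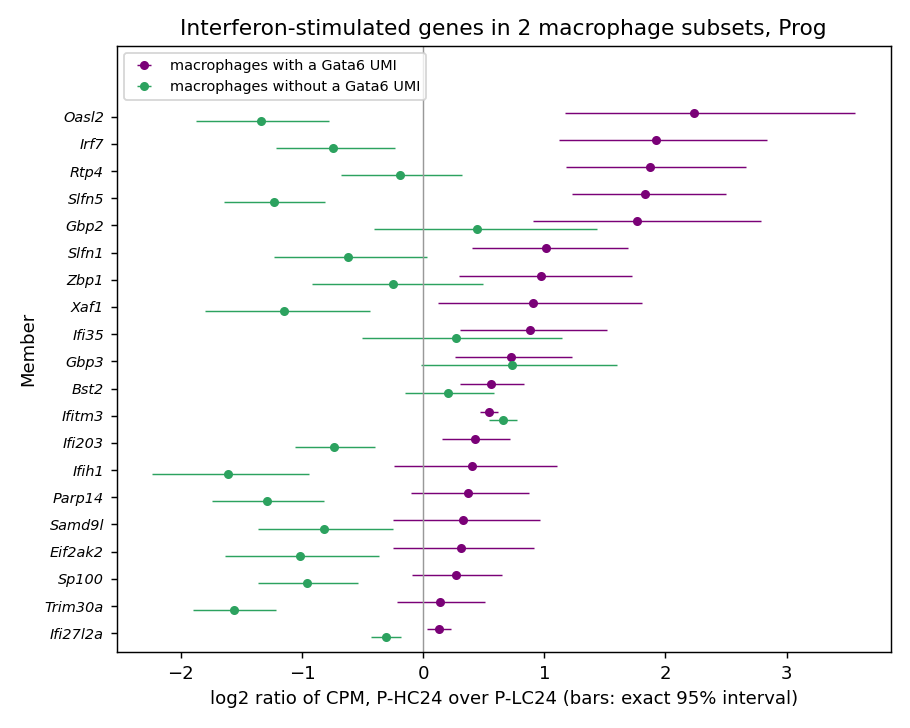
log2 ratios of P-HC24 over P-LC24 for members compared in macrophages with a Gata6 UMI (purple) and without (green), with exact 95% intervals. Oasl2 lies at 2.24 in the first and at -1.34 in the second, and Irf7 at 1.92 and -0.74.

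In the Int comparison the macrophage levels were lower in I-HC32 for several members. In the class 6 of 24 were at least 1.5-fold lower (9.8% of all genes) and none higher (3.25%), with a median of -0.39 against -0.14. The core sum of the class was at -0.59 (-0.69 to -0.48). Zbp1 was at 29.4, 40.4, 54.2 and 27.5 CPM, a log2 ratio of -0.98 (-1.30 to -0.64). Ifi27l2a was at 1149, 1133, 985 and 531 CPM, a log2 ratio of -0.89 (-0.97 to -0.82). Parp14, an ADP-ribosyl transferase, was at 69.8, 55.2, 64.6 and 36.0 CPM. The highest were Slfn5 at 0.24 (-0.07 to 0.56), Ifi203 at 0.24 (0.04 to 0.45) and Ifih1 at 0.01 (-0.40 to 0.44). In macrophages with a Gata6 UMI, 8 of 24 were lower, against 5.55% of all genes, among them Ifi27l2a at -0.92 (-1.01 to -0.83) and Zbp1 at -1.03 (-1.42 to -0.63).

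Dendritic cells were few, at 43, 34, 62 and 49, and their makeup differed. Irf8, a factor of conventional type 1 dendritic cells, was in 74.4% of them in P-LC24 and in 20.6%, 40.3% and 26.5% in the others. Clec9a, a type 1 marker that is also a gate gene, fell less in P-HC24, at 62.8%, 52.9%, 38.7% and 26.5%. Cd209a, a type 2 marker and likewise a gate gene, was in 46.5%, 76.5%, 69.4% and 77.6%. Batf3, a dendritic marker that the gates did not use, did not follow Irf8, at 69.8%, 79.4%, 67.7% and 73.5%. Ly6c2 was in 34.9%, 8.82%, 29.0% and 12.2% of dendritic cells. In Prog, 5 of 9 members were at least 1.5-fold lower (25.3% of all genes) and 1 was higher (9.21%). Trim30a was at 230, 81.4, 122 and 99.2 CPM, a log2 ratio of -1.50 (-2.02 to -1.0). Bst2 was at 539, 205, 274 and 240 CPM, so that P-LC24 alone was high, a log2 ratio of -1.39 (-1.72 to -1.08). Ifi203 followed at -1.20 (-1.72 to -0.70). Ifitm3 went the other way, at 1370, 2728, 1924 and 2096 CPM, a log2 ratio of 0.99 (0.88 to 1.11). The part of the makeup in these ratios was not tested. In Int, none of 10 members was lower (5.74%) and 1 was higher (5.84%), Ms4a4c at 145, 145, 135 and 221 CPM with a log2 ratio of 0.71 (0.38 to 1.04). The core sum, which takes in members below the filter, was lower in I-HC32, at -0.54 (-0.78 to -0.29).

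NK cells numbered 224, 90, 133 and 56. In Prog, 2 of 8 members were at least 1.5-fold higher (3.77% of all genes), Zbp1 at 0.91 (0.29 to 1.52) and Ifi35 at 0.88 (0.27 to 1.47). Another 2 were lower (16.5%), Samd9l at -1.18 (-1.78 to -0.63) and Ifi206 at -0.63 (-1.33 to 0.01). Samd9l was at 150, 66.3, 126 and 129 CPM, so that P-HC24 alone was low. In Int only 4 members could be compared, and none was 1.5-fold higher (4.36%) or lower (4.31%). The core sum, which takes in members below the filter, was at 203, 303, 227 and 252 CPM. Its log2 ratio was 0.58 (0.27 to 0.88) for Prog and 0.15 (-0.24 to 0.52) for Int. Ifi203, which was the most abundant IFI200 gene in this class, was at 324, 279, 276 and 274 CPM.

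T cells held 19 members that could be compared in Prog. Irf7 was the 1 member at least 1.5-fold higher (1.27% of all genes), and 4 were lower (12.9%): Herc6 at -0.86 (-1.09 to -0.64), Trim30a at -0.65 (-0.81 to -0.50), Ifi203 at -0.64 (-0.73 to -0.55) and Sp100, a nuclear body protein, at -0.63 (-0.72 to -0.54). Irf7 stood at 19.7, 31.2, 23.5 and 39.3 CPM, higher in the cholesterol arm at both times, with log2 ratios of 0.67 (0.38 to 0.95) for Prog and 0.74 (0.49 to 0.99) for Int. In Int, 2 of 21 members were higher (3.31%) and none lower (1.47%), while 16 had a ratio below 0 and the median was -0.16 against 0.05 for all genes. The interval lay below 0 for 10 members and above 0 for 4. The core sum of the whole class was lower in I-HC32, at -0.28 (-0.37 to -0.20), and the IFIT sum at -0.77 (-1.04 to -0.51). The second of the higher members was Ifitm3, at 5.57, 18.6, 15.8 and 48.5 CPM and with a log2 ratio of 1.62 (1.36 to 1.89).

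Ifitm3 was far higher in myeloid cells than in T cells, and both it and Lyz2 were higher over all barcodes in the cholesterol arm. Over all barcodes of a library Ifitm3 stood at 220, 584, 266 and 479 CPM and Lyz2 at 1123, 6427, 1578 and 7981 CPM, and Lyz2 in T cells stood at 1.13%, 1.36%, 1.45% and 2.33% of its level over all barcodes. With that share of the all-barcode profile subtracted, Ifitm3 in T cells was at 3.07, 10.7, 11.9 and 37.3 CPM and the Int ratio was 1.66. Irf7 changed little with the subtraction, to 0.67 for Prog and 0.75 for Int. The subtraction takes the sum of all barcodes as the free RNA and scales it by Lyz2 alone. The part of free RNA in the T cell levels was therefore not tested.

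B cells, the largest class with 3130, 4337, 4645 and 4655 cells, had the smallest intervals. In Prog, 1 of 16 members was at least 1.5-fold higher (2.42% of all genes) and 4 were lower (13%). Ifi27l2a was the higher one, at 377, 582, 405 and 329 CPM, so that P-HC24 alone was high, with a log2 ratio of 0.63 (0.59 to 0.66). The lower ones were Ifi213 at -0.69 (-0.86 to -0.52), Ifi203 at -0.62 (-0.66 to -0.58), Ms4a4c at -0.61 (-0.68 to -0.54) and Samd9l at -0.60 (-0.66 to -0.53). Ifi203 stood at 349, 227, 239 and 231 CPM, and it was P-LC24 that stood apart. Bst2 (0.53) and Ifi35 (0.50) had the next highest ratios. The makeup of the class differed too. B-2 cells numbered 1780, 1484, 1793 and 1215 and B-1 cells 560, 1505, 1628 and 2259, gated on a few genes each. The Prog median of the members was -0.25 in the class, -0.15 in B-2 and 0.03 in B-1 cells. For all genes it was -0.22, -0.18 and -0.19. The part of the makeup in these ratios was not tested. In Int none of 17 members was 1.5-fold higher (1.54%) or lower (0.965%), and the ratios ran from Ms4a4c at -0.53 (-0.60 to -0.46) to Gbp2 at 0.42 (0.28 to 0.55). The core sum of the class, which takes in members below the filter, was at 0.27 (0.20 to 0.35) for Prog. For Int it was at -0.26 (-0.31 to -0.21).

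Members too low for the filter could still be read in B cells from their UMIs. Ifit3 had 27 UMIs in P-LC24 and 192, 255 and 180 in the other 3 libraries, which is 1.20, 5.11, 6.26 and 3.68 CPM. Ifit1 had 18, 95, 112 and 111 UMIs. Rsad2, in contrast, was at 8.61, 4.07, 7.95 and 4.52 CPM, lower in both libraries of the cholesterol arm. Over all barcodes of a library it was higher, at 50.8, 17.2, 31.3 and 6.25 CPM. With the Lyz2-based share of the all-barcode profile subtracted, Rsad2 in B cells was at 7.20, 3.75, 7.63 and 4.42 CPM. The part of free RNA in its B cell level was not tested.

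Single cells with several of these transcripts were counted after each cell with at least 2000 UMIs had been thinned to 2000. Among monocytes, 15.0%, 15.9%, 21.2% and 6.74% had at least 3 UMIs of the core members. The exact intervals were 15.5% to 27.95% for I-LC32 and 2.51% to 14.1% for I-HC32, and they cover the counting of cells of 1 library each. Without thinning the shares were 65.4%, 67.7%, 80.4% and 57.3%. After thinning, the 5% of monocytes with most core UMIs held 43.1%, 27.5%, 28.0% and 26.1% of all core UMIs of the class. Core levels of P-LC24 monocytes thus rested more on a few cells. In B cells 0.937% to 1.63% of cells reached 3 UMIs and in T cells 2.79% to 4.24%. Such a count is a range of a score and not a cell type: of the 38 monocytes at or above 3 in I-LC32, 11 had exactly 3, and another 35 had 1 UMI fewer.

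**Figure D4:**
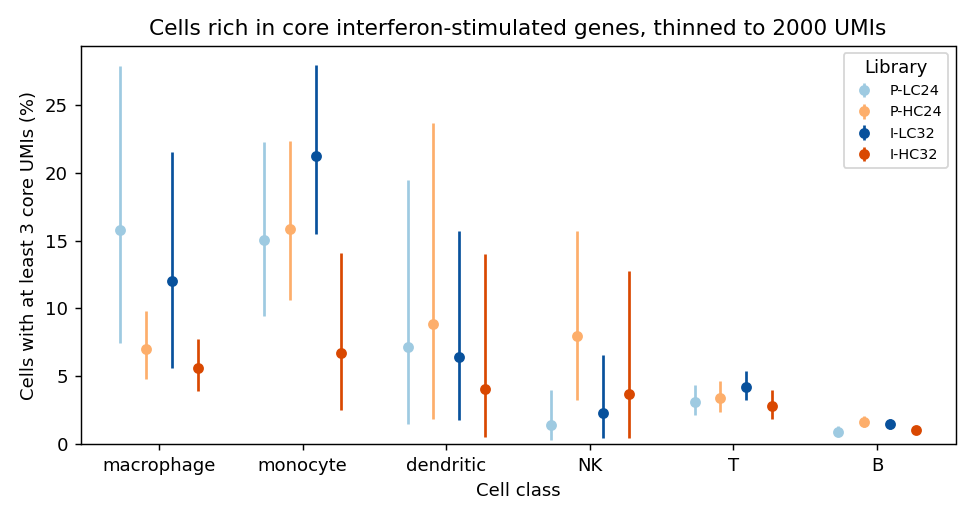
Share of cells with at least 3 core UMIs after thinning to 2000 UMIs, by cell class (horizontal axis) and library, with exact 95% Clopper-Pearson intervals. Monocytes of I-LC32 stand at 21.2% and those of I-HC32 at 6.74%.

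In T cells of I-LC32, 27 thinned cells had an Ifit3 UMI and averaged 4.37 UMIs of the other core members, against 0.502 in the 1505 cells without it. In B cells of P-HC24 the means were 2.21 in 34 cells and 0.252 in 4266 cells. In these T and B cells, those with an Ifit3 UMI thus carried more of the other core transcripts than those without one. The other core members include Ifit3b, whose reads are hard to separate from those of Ifit3.

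The rest of the pathway was read from 51 further genes. Of 10 ligand genes, 8, among them Ifnb1 and the 4 interferon alpha genes of the list, had 0 UMIs in 224703932 UMIs of the 6 classes, which allows up to 0.0134 CPM. Ifng, the interferon of NK and T cells, was at 127, 53.1, 99.3 and 22.4 CPM in NK cells. Its Prog ratio there was -1.26 (-1.94 to -0.64).

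In monocytes, 23 of the 51 were compared in Int, 1 of which was at least 1.5-fold higher (7.13% of all genes) and 5 lower (7.9%). The lower ones included Irf8, Sting1, Rigi and Myd88. Myd88, the adaptor of most Toll-like receptors, was at -1.21 (-1.78 to -0.68). The receptor genes Ifnar1 at 0.34 (-0.15 to 0.82) and Ifnar2 at -0.06 (-0.32 to 0.19) were not distinguishable from 0, and Jak2 was the higher one at 0.88 (0.48 to 1.28).

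In Prog, 6 of 27 were lower in monocytes (10.8% of all genes) and none higher (5.2%). The lowest were chemokines that interferon gamma induces. Cxcl9 had 258, 1, 3 and 5 UMIs, and the 258 came from 5.15% of the 136 monocytes of P-LC24. Cxcl10 had 95, 31, 29 and 9 UMIs.

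Macrophages of Int had 5 of 21 lower (9.8% of all genes) and none higher (3.25%), with Nlrc5, an activator of MHC class I genes, at a log2 ratio of -1.14 (-1.58 to -0.68). T cells of Int had 6 of 27 higher (3.31%) and 1 lower (1.47%). The higher ones included the receptor chains Ifngr2 at 1.44 (1.24 to 1.65) and Ifnar1 at 0.75 (0.59 to 0.90), the kinase Jak2 at 1.17 (1.05 to 1.28) and the inhibitor Socs1 at 1.00 (0.87 to 1.12).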

How the data were processed

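Droplet single-cell RNA was measured in 4 libraries, 1 per condition. Per the processing notes, the authors aligned reads with Cell Ranger 9.0.1 to GRCm39 and used Seurat 5.3. The deposited matrices hold raw UMI counts per gene and barcode, and the total count was 50941106 to 89257239 UMIs per library. Cells with at least 500 UMIs, 300 genes and at most 10% mitochondrial UMIs were kept, and the highest Scrublet scores (0.8% of cells per 1000 cells) were removed as doublets. Classes were gated on raw UMIs of marker genes, and UMIs were summed per class and library. With 1 library per condition, no test between conditions was run. CPM carry exact Poisson intervals, log2 ratios exact conditional intervals and shares Clopper-Pearson intervals, all at 95% and for counting error only. UMIs collapse copies of 1 molecule, so amplification adds little to that error.

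Genes were compared with at least 100 UMIs over both libraries and a mean of at least 20 CPM. The named genes were the 3 highest and 3 lowest ratios per class and comparison and the most abundant member per role, and other members were named after their values were seen. Members and lists were chosen with earlier results of these data known. Cells were thinned to 2000 UMIs with a fixed seed. Alternatives numbered 7 planned and 1 added. The calculations were tested on simulated data and run in Python 3.11.15 with numpy 2.4.6, scipy 1.17.1, pandas 2.3.3, scanpy 1.11.5 and matplotlib 3.10.9. Promoter sequences came from RefSeq (GRCm38.p6) and positions from GENCODE (GRCm39).

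A single gene of the pathway list is not reported here.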

Additional observations from a re-analysis of the deposited data

Results flagged for a closer look

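In the Prog comparison, the 2 macrophage subsets moved in opposite directions, which marked them for a closer look. The difference between the subsets was not tested, since each condition was 1 library. The summed core members had a log2 ratio of 1.08 in macrophages with a Gata6 UMI and of -1.05 in those without. Irf7 stood at 1.92 and -0.74, Oasl2 at 2.24 and -1.34, and Slfn5 at 1.83 and -1.23. Slfn1 stood at 1.01 and -0.62, and Xaf1 at 0.91 and -1.14. In the Int comparison Slfn1 was the reverse, at -0.70 with a Gata6 UMI and 1.83 without, where I-LC32 held 6 UMIs.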

How the results depend on the processing

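Of the medians, 119 values under the alternatives moved by less than the spread, 5 moved and 1 reversed, and of the counts 194 stayed within 1.5 times and 56 did not. The lower monocyte levels in Int kept their direction under all 7 alternatives that apply to every class, with medians of -1.28 to -0.98 and 22 to 34 members lower, and so did the higher levels of Prog in macrophages with a Gata6 UMI, with medians of 0.46 to 0.73 and 10 to 21 members higher. Each condition was 1 library, so no replicate could be left out. No paired analysis was possible because the conditions have 1 library each. The cause of the changes below was not tested, apart from the number of members admitted.

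Relative to the median of all genes, the Prog median was -0.091 in T cells and -0.023 in B cells. Prog members higher went from 4 to 9 in macrophages, 0 to 2 in monocytes, 1 to 4 in T cells and 1 to 4 in B cells. Those lower went from 2 to 1 in macrophages, 3 to 1 in monocytes, 2 to 1 in NK cells, 4 to 1 in T cells and 4 to 0 in B cells. Int members lower went from 0 to 1 in T cells and 8 to 5 in macrophages with Gata6.

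With 20 UMIs and no CPM minimum, which admitted up to 42 members, the B cell median reversed to 0.13 for Prog and was -0.15 for Int. Prog members higher went from 0 to 1 in monocytes, 1 to 3 in dendritic cells, 2 to 5 in NK cells, 1 to 3 in T cells, 1 to 6 in B cells, 10 to 21 in macrophages with Gata6 and 2 to 4 in those without. Those lower went from 2 to 11 in macrophages, 3 to 8 in monocytes, 5 to 15 in dendritic cells, 2 to 5 in NK cells, 4 to 9 in T cells and 13 to 29 in macrophages without Gata6. Int members higher went from 0 to 2 in NK cells and 0 to 1 in macrophages with Gata6. Those lower went from 6 to 16 in macrophages, 22 to 34 in monocytes, 0 to 8 in dendritic cells, 0 to 3 in NK cells, 0 to 10 in T cells, 0 to 7 in B cells, 8 to 15 in macrophages with Gata6, 17 to 31 in classical and 8 to 24 in patrolling monocytes.

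At a mitochondrial limit of 5%, the B cell median was -0.092 for Prog and -0.24 for Int. Members higher in Prog went from 0 to 1 in monocytes and 2 to 1 in NK cells, and those lower from 2 to 1 in NK cells and 4 to 1 in B cells, while 2 instead of 0 were lower in B cells in Int. With equal weight of cells, Prog members higher went from 4 to 2 in macrophages and 0 to 1 in monocytes, and those lower from 2 to 8 in macrophages, 2 to 4 in NK cells and 4 to 1 in B cells. In Int, dendritic cells had 0 instead of 1 higher and 2 instead of 0 lower, and macrophages with Gata6 had 5 instead of 8 lower. Without doublet removal, Prog members lower went from 2 to 1 in macrophages and in NK cells, and Int members lower from 0 to 1 in dendritic cells. With strict gates, Prog members lower went from 2 to 4 in macrophages, those higher from 0 to 1 in monocytes and 2 to 1 in NK cells, and Int members lower from 0 to 1 in dendritic cells. Subtracting 10% free RNA gave 1 instead of 0 higher in monocytes in Prog. The subtraction of free RNA by Lyz2, an alternative chosen after seeing the data, moved no median or count of B, T and NK cells beyond these limits.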

Other observations

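T cells were split by Cd4 and Cd8 UMIs. Ifitm3 was at 1.73, 12.3, 6.21 and 60.4 CPM in CD4 T cells (libraries in the order used above), a log2 ratio of 3.28 (2.39 to 4.33) for Int from 109 and 11 UMIs. Irf7 had an Int ratio of 0.75 (0.15 to 1.36) in CD4 and of 1.07 (0.73 to 1.41) in CD8 T cells. In B cells the core sum had a Prog ratio of 0.51 (0.38 to 0.64) in B-1 cells and of 0.28 (0.17 to 0.39) in B-2 cells, gated on a few genes each. These are values of single libraries, and no difference between the subsets was tested.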
